A study of Mus musculus with 19 samples.

Results

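The aryl hydrocarbon receptor (AhR) complex and its feedback genes were followed in mouse liver through 6 genes. They were the receptor Ahr, its partner Arnt, the feedback genes Ahrr and Tiparp, and Ptges3 and Hsp90ab1, which encode the chaperones p23 and Hsp90 beta. Every non-control array probe whose RefSeq accession belongs to one of these genes was taken, giving 13 probes for 6 of the 20018 genes named on the array. Of these, 10 probes for 5 genes lay above background in liver and were tested, and Ahrr had none. RNA came from part of the liver of male mice, 10 weeks old, of the transgenic strain 40.6. The mice had received dibenz[a,h]anthracene (DB[a,h]A), a polycyclic aromatic hydrocarbon, 3 days before. The doses were 0 (control), 6.25, 12.5 and 25 mg/kg, with 5, 5, 4 and 5 mice, 1 array per mouse. The transgene and the route of exposure are not given in the sources used here. Each array carried liver RNA in Cy5 and, in Cy3, a universal reference RNA from 11 mouse cell lines. All groups share that reference, and values are log2 ratios of liver over reference.

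In the resting cell AhR lies in the cytosol, bound to Hsp90, p23 and other chaperone proteins. A ligand such as a polycyclic aromatic hydrocarbon releases it to the nucleus, where it pairs with ARNT, binds DNA elements with the core letters GCGTG and switches on genes of xenobiotic metabolism, of which Cyp1a1 is the best known. Among its targets are Ahrr, a repressor that competes for ARNT, and Tiparp, a mono-ADP-ribosyltransferase that marks AhR and lowers its activity, so that both close a negative feedback loop.

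The promoters of the members are shown because they can be searched for the receptor's own recognition letters. All 4 promoters at hand held these letters, those of Arnt and Ptges3 as well as those of the feedback genes. The RefSeq table of build GRCm38.p6 holds 300 bases, from 250 before to 50 after the start site, for 4 of the 6 members. They are written 5′ to 3′ on the gene's strand, with GCGTG, or CACGC where it lies on the other strand, in capitals. The Ahrr promoter is chr13:74292282-74292581 on the minus strand. The others lie on the plus strand, at chr3:65528197-65528496 for Tiparp, chr3:95434140-95434439 for Arnt and chr10:128058732-128059031 for Ptges3.
Ahrr: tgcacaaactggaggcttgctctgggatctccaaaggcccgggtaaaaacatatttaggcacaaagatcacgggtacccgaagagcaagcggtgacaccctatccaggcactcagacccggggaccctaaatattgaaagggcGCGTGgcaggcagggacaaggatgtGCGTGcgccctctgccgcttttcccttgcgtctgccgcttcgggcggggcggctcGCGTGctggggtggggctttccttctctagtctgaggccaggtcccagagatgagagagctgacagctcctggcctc
Tiparp: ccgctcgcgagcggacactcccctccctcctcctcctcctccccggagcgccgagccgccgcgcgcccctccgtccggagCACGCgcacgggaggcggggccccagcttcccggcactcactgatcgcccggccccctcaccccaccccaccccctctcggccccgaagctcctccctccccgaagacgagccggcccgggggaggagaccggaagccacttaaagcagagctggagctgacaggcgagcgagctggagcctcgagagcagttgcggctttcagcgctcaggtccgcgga
Arnt: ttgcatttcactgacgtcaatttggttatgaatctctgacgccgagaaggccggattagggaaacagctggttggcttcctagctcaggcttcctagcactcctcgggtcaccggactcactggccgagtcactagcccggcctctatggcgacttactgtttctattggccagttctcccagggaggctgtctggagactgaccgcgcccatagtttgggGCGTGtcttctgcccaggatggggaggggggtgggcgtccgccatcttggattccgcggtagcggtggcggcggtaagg
Ptges3: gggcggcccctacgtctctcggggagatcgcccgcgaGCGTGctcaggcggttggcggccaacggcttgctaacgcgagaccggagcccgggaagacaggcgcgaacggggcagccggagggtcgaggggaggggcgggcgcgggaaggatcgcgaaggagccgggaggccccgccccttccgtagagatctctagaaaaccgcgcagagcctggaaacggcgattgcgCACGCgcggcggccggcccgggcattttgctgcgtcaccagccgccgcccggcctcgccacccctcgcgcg

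Ahrr held 3 copies of GCGTG, beginning at -107, -82 and -27 relative to the start site. The last of them lies within TCGCGTG at -29, the only match among these promoters to the longer form TNGCGTG, which contains GCGTG. Tiparp held 1 copy on the opposite strand at -170, Arnt 1 copy at -29, and Ptges3 1 copy at -213 and 1 on the opposite strand at -21. On either strand, GCGTG occurred in 32.4% and TNGCGTG in 5.07% of 32851 promoters of the same length. Of the 20 AhR targets listed outside the members, 15 had a promoter in the table, and 9 of these held GCGTG and 2 held TNGCGTG. A match is a string of letters in this window and was not tested as a site.

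The arrays were read on 3 slides, each holding mice of all 4 groups, and slide 1 was scanned 7 days after slides 2 and 3. Between 35.5% and 56.7% of spots were well above background in the liver channel. A value compares a mouse with the reference on its own array, and with the dyes never swapped, dye and tissue cannot be told apart. The share of variance explained by slide had a median of 41.0% over all 29415 probes tested, against 12.8% for dose. Changes are therefore given from the fit on dose alone and, for many of them, also from a fit with slide as a block. A change given with no fit or setting named comes from the fit on dose alone. Albumin, the defining hepatocyte product, was on average 6.96 above the reference on the log2 scale and above background on 19 of 19 arrays. None of the hepatocyte, macrophage, lymphocyte, stellate, endothelial and cholangiocyte markers passed the test at any dose in either fit. Of the 7 hepatocyte markers kept, 0 were higher and 7 lower at 25 mg/kg, where 48.3% of all genes were higher. Their median was -0.25 in the fit on dose alone and -0.05 with the slide block. Cholangiocyte markers were 0 higher and 4 lower (median -0.20, or -0.21 with the block) and lymphocyte markers 1 and 5 (-0.14, or -0.21). Macrophage and endothelial markers were each 2 higher and 4 lower, and stellate markers 3 and 3. The part of these markers in the members' values was not tested. In bulk liver, fewer cells of a type and less RNA per cell cannot be told apart.

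None of the member probes passed in any comparison, with or without the slide block. Tested with limma and Benjamini-Hochberg adjustment over all 29415 probes, 0 of 10 member probes had an adjusted p under 0.05 at 25 mg/kg, where 0.0578% of all probes did (17 probes). With the slide block it was again 0 of 10, against 0.809% of all probes (238). At 12.5 mg/kg the counts were 0 of 10, against 0% of all probes without the block and 0.0068% with it. At 6.25 mg/kg they were 0 of 10, against 0% in both fits. For all treated mice against control they were 0 of 10, against 0.0374% (11 probes) and 0.408% (120). At an unadjusted p under 0.05, 2 of the 10 member probes were counted at 25 mg/kg, against 7.37% of all probes, and the 2 were Arnt and Tiparp. At 6.25 mg/kg, 2 were counted, Ahr and Tiparp, against 5.57% of all probes. At 12.5 mg/kg, 0 were counted, against 4.21%. For all treated mice, 2 were counted, again Arnt and Tiparp, against 6.91%. Data were simulated from these arrays with independent noise and no slide effect. In them the test recovered 82% of probes changed by 1 on the log2 scale and 99% of those changed by 2 at 25 mg/kg. It also called 17 probes that had been given no change at that dose. The largest member change at that dose was 0.48, smaller than either size tried, so this recovery does not carry over to the members. The members are described below with their 95% intervals. At 25 mg/kg the 10 probes had a median change of -0.03 against -0.02 over all probes, with 3 higher and 7 lower, where 44.9% of all probes were higher.

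**Figure D1:**
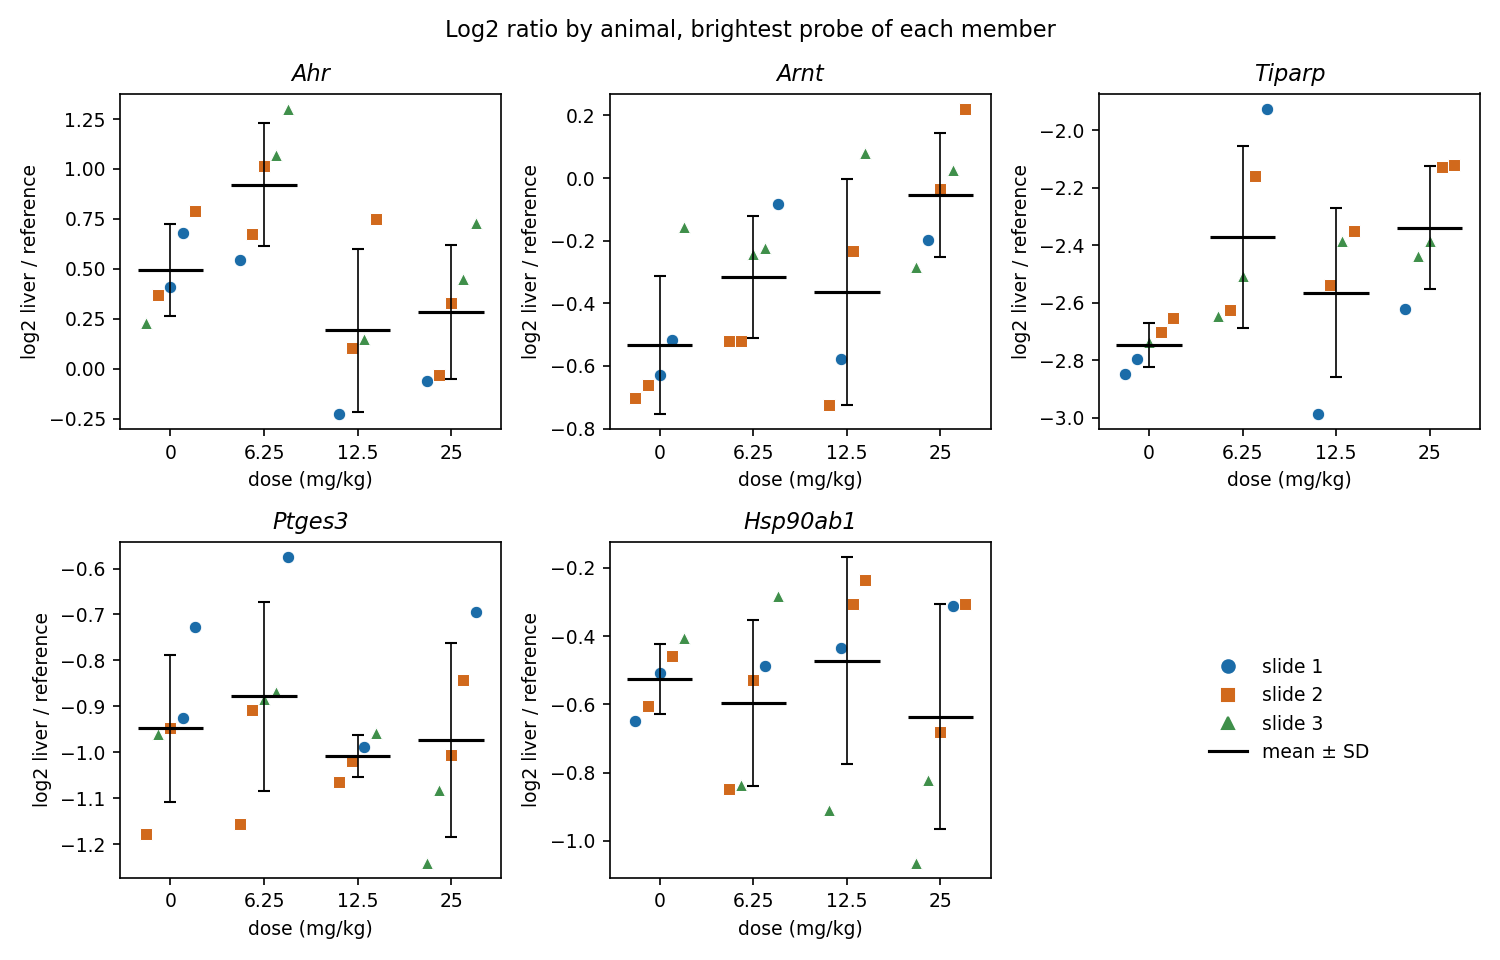
Log2 ratio of liver over reference for each mouse (y axis) by dose (x axis, mg/kg), for the brightest kept probe of each of the 5 genes tested; colour and shape give the slide, bars the group mean ± SD. Ahr is highest at 6.25 mg/kg, Arnt is highest at 25 mg/kg, and the Tiparp controls lie below every mouse at 6.25 and 25 mg/kg.

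Ahr, the ligand-binding receptor, varied between doses without a single direction. With the probe A_55_P2109613, the 5 controls stood at 0.23, 0.37, 0.41, 0.68 and 0.79 on the log2 scale, a mean of 0.50 ± 0.23 (SD, n = 5). The mice at 6.25 mg/kg stood at 0.55, 0.67, 1.01, 1.07 and 1.30, a mean of 0.92 ± 0.31 (SD, n = 5), so that 3 of the 5 lay above the highest control and the groups overlapped. The mice at 12.5 mg/kg stood at -0.23, 0.10, 0.15 and 0.75, a mean of 0.19 ± 0.41 (SD, n = 4). Those at 25 mg/kg stood at -0.06, -0.03, 0.33, 0.45 and 0.73, a mean of 0.28 ± 0.33 (SD, n = 5). At both higher doses the lowest mice lay below all controls and the highest within the control range. The receptor was thus highest at 6.25 mg/kg, then in controls, then at 25 mg/kg and lowest at 12.5 mg/kg, and no neighbours in that order differed by a test that passed.

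Against control, Ahr differed by 0.43 ± 0.19 (SE) at 6.25 mg/kg (limma adjusted p = 0.883; 0.449 with the slide block), by -0.30 ± 0.20 at 12.5 mg/kg (adjusted p = 0.999; 0.575 with the block) and by -0.21 ± 0.19 at 25 mg/kg (adjusted p = 0.863; 0.481 with the block). The 95% interval at 25 mg/kg ran from -0.61 to 0.19, and median centring in place of loess turned that value to 0.11. Leaving out 1 mouse gave -0.32 (without replicate 2) to -0.13 (without replicate 5) at 25 mg/kg and -0.49 (without replicate 3) to -0.16 (without replicate 4) at 12.5 mg/kg. The widest gaps lay between doses. Ahr was 0.73 ± 0.20 lower at 12.5 than at 6.25 mg/kg (change -0.73, unadjusted p = 0.00199, limma adjusted p = 1; adjusted p = 0.184 with the slide block), in a comparison that called 0% of all probes, or 0.0034% with the block, and 4.41% at an unadjusted p under 0.05. Between 25 and 6.25 mg/kg the change was -0.64 ± 0.19 (unadjusted p = 0.00352, limma adjusted p = 1; 0.827 with the block), where 0% were called in both fits and 2.15% had an unadjusted p under 0.05. Between 25 and 12.5 mg/kg Ahr differed by 0.09 ± 0.20, and 0 of 10 member probes had an unadjusted p under 0.05, against 3.98% of all probes. By unadjusted p, Ahr ranked 46 and 27 of 29415 probes in these contrasts, which share the mice at 6.25 mg/kg. In the test for any dose difference Ahr had an adjusted p of 0.728 (0.16 with the block), and 0.0102% of all probes were called (0.0748% with the block). At an unadjusted p under 0.05, 3 member probes were counted in that test (Ahr, Arnt and Tiparp), against 5.08% of all probes. The slope of Ahr on dose was -0.0157 per mg/kg (limma unadjusted p = 0.0907, adjusted p = 0.94). With the block it was -0.0185 (limma unadjusted p = 0.0341, adjusted p = 0.409).

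Within slides the receptor's differences were uneven. At 6.25 mg/kg, Ahr differed from the control mean of its slide by 0.0019 on slide 1, by 0.26 on slide 2 and by 0.96 on slide 3. At 25 mg/kg the differences were -0.60, -0.43 and 0.36, and at 12.5 mg/kg -0.77, -0.15 and -0.08. Slide 3 held 1 control, the lowest of the 5, so its 3 values rest on that mouse. Dose explained 49.4% of the variance of Ahr and slide 13.5%. The reference channel of Ahr varied little over the arrays, with an SD of 0.09 against 0.39 in the liver channel. A second Ahr probe, A_65_P06603, was not well above background in liver on any of the 19 arrays, so Ahr rests on 1 probe. With loess normalisation, Ahr lay 1.40-fold above the reference on average, and the direction turned with median centring in place of loess, to -0.54 on the log2 scale.

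Arnt, the nuclear partner that AhR shares with the hypoxia factors, gave different pictures on its 2 probes. With A_55_P2100895, the brighter, controls stood at -0.70, -0.66, -0.63, -0.52 and -0.16, a mean of -0.53 ± 0.22 (SD, n = 5). Mice at 25 mg/kg stood at -0.28, -0.20, -0.03, 0.03 and 0.22, a mean of -0.05 ± 0.20 (SD, n = 5). The groups overlapped through the highest control: 3 of 5 treated mice lay above it and all 5 above the other 4 controls. The values at 6.25 mg/kg were -0.52, -0.52, -0.24, -0.22 and -0.08, and at 12.5 mg/kg -0.73, -0.58, -0.23 and 0.08. Mean levels were -0.32 ± 0.20 (SD, n = 5) and -0.36 ± 0.36 (SD, n = 4), both within the spread of the controls and of each other.

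For that Arnt probe the change at 25 mg/kg was 0.48 ± 0.15 (SE), with a 95% interval from 0.16 to 0.80 (limma adjusted p = 0.334), and 0.44 with the slide block (adjusted p = 0.143). At 6.25 and 12.5 mg/kg it was 0.22 ± 0.15 and 0.17 ± 0.16 (adjusted p = 0.926 and 0.999). Median centring gave 0.78, 0.40 and 0.0020 at 25, 6.25 and 12.5 mg/kg, and leaving out 1 mouse at 12.5 mg/kg gave 0.02 (without replicate 1) to 0.29 (without replicate 3). Within slides 1, 2 and 3 the difference at 25 mg/kg was 0.38, 0.77 and 0.03, the last against the highest of the 5 controls, the only one on slide 3. The slope on dose was 0.0176 per mg/kg (limma adjusted p = 0.491; 0.208 with the block), where 0.0204% of all probes were called (0.241% with the block). In the fit on dose alone it was the 1 member probe with an unadjusted p under 0.05 for the slope, against 5.87% of all probes. The probe A_55_P2100899 did not show this difference. Its group means were -0.58 ± 0.19 (SD, n = 5) in controls, -0.60 ± 0.07 (n = 5) at 6.25, -0.58 ± 0.24 (n = 4) at 12.5 and -0.62 ± 0.18 (n = 5) at 25 mg/kg. At 25 mg/kg it differed from control by -0.03 ± 0.12 (SE, limma adjusted p = 0.965). Its 95% interval, from -0.28 to 0.21, overlaps the 0.16 to 0.80 of the other probe, and the difference between the probes was not tested. Both probes carry the same gene by accession, and over 19 arrays they correlated at r = 0.28 after each slide's mean was removed and at 0.19 without that step. The dimmer probe had a median liver signal of 161 scanner units against a local background of 65 to 73. Taking the mean of both probes for Arnt gave 0.22 at 25 mg/kg.

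**Figure D2:**
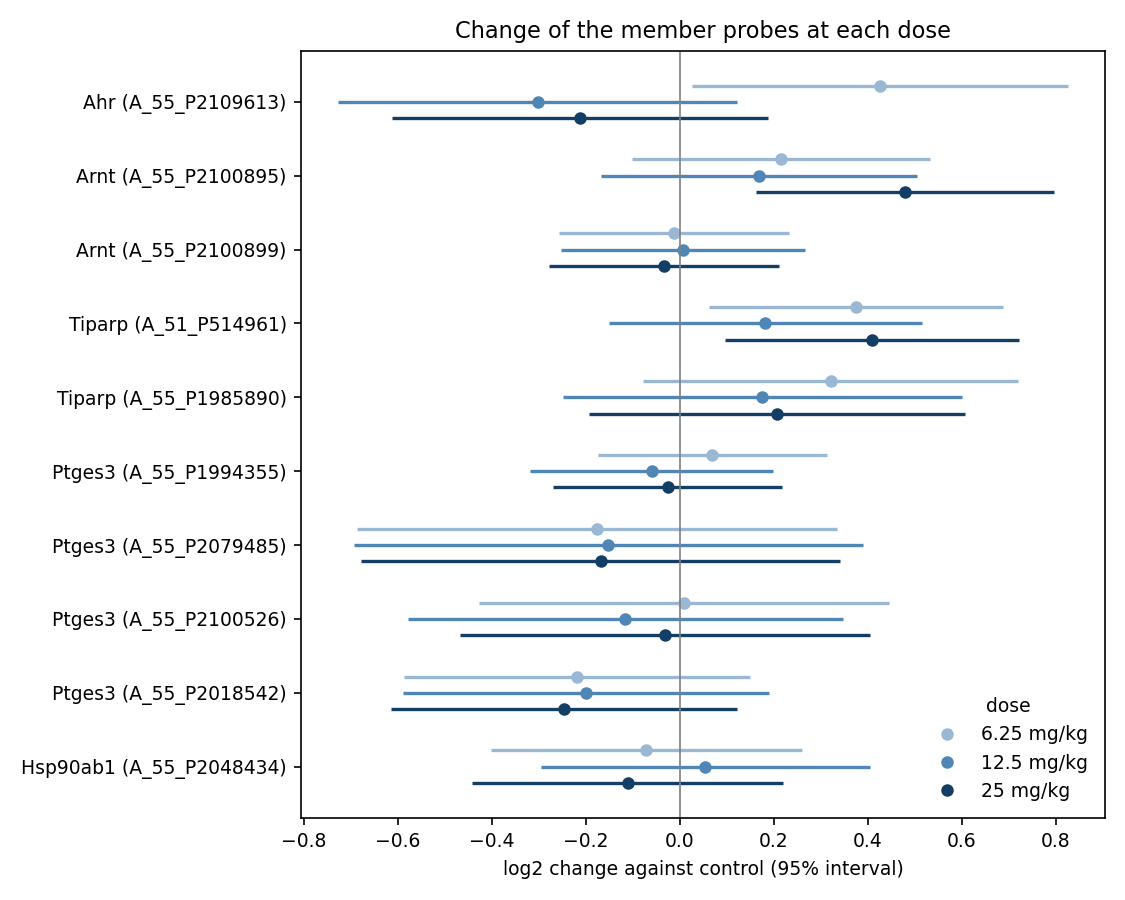
Log2 change against control (x axis) of the 10 member probes tested (y axis) at 6.25, 12.5 and 25 mg/kg, as point estimates with 95% intervals from limma. The intervals of Arnt (A_55_P2100895) and Tiparp (A_51_P514961) at 25 mg/kg, and of Ahr and Tiparp (A_51_P514961) at 6.25 mg/kg, lie above 0, and none of the adjusted p-values is under 0.05.

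Tiparp, the feedback gene that could be measured, was the only member with a dose group wholly above control, at the lowest and at the highest dose. With the probe A_51_P514961, controls lay close together at -2.85, -2.79, -2.74, -2.70 and -2.65, a mean of -2.75 ± 0.08 (SD, n = 5). Mice at 25 mg/kg stood at -2.62, -2.44, -2.38, -2.13 and -2.12, a mean of -2.34 ± 0.21 (SD, n = 5), all above the highest control. The 5 mice given 6.25 mg/kg stood at -2.65, -2.62, -2.51, -2.16 and -1.92, a mean of -2.37 ± 0.32 (SD, n = 5), and also lay above every control, the lowest by less than the printed decimals show. At 12.5 mg/kg the values were -2.99, -2.54, -2.39 and -2.35, a mean of -2.57 ± 0.29 (SD, n = 4), with 1 mouse below all controls and 3 above. This was 1 of the 10 member probes free of overlap with control at 25 mg/kg, against 1.73% of all probes, and 1 of 10 at 6.25 mg/kg, against 0.975%. At 12.5 mg/kg it was 0 of 10, against 1.43%, and for all treated mice 0 of 10, against 0.0975%.

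The Tiparp change was 0.41 ± 0.15 (SE) at 25 mg/kg, a 95% interval from 0.10 to 0.72 (limma adjusted p = 0.463; 0.185 with the slide block). It was 0.38 ± 0.15 at 6.25 mg/kg (adjusted p = 0.878; 0.324 with the block) and 0.18 ± 0.16 at 12.5 mg/kg (adjusted p = 0.999; 0.78 with the block). Median centring gave 0.70 at 25 mg/kg and 0.02 at 12.5 mg/kg, and leaving out 1 mouse at 12.5 mg/kg gave 0.11 (without replicate 3) to 0.32 (without replicate 4). Over all treated mice it was 0.32 ± 0.12 (adjusted p = 0.561; 0.249 with the block). Within slides 1, 2 and 3 the difference at 25 mg/kg was 0.20, 0.55 and 0.33, and at 6.25 mg/kg 0.90, 0.29 and 0.16. All of these had to lie above 0, since every mouse at these doses lay above every control. Slide 1 held 1 mouse at each of these doses, and slide 3 held 1 control. At 12.5 mg/kg the differences within slides were -0.17, 0.23 and 0.35. The levels at 25 and 6.25 mg/kg differed by 0.03 ± 0.15 (adjusted p = 1), and no other neighbouring doses differed by a test that passed.

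The second Tiparp probe, A_55_P1985890, also had higher means in treated mice, with more spread among controls. Its means were -1.96 ± 0.44 (SD, n = 5) in controls, -1.64 ± 0.09 (n = 5) at 6.25, -1.78 ± 0.44 (n = 4) at 12.5 and -1.75 ± 0.20 (n = 5) at 25 mg/kg. The changes were 0.32 ± 0.19, 0.18 ± 0.20 and 0.21 ± 0.19 (SE; limma adjusted p = 0.921, 0.999 and 0.867). With the slide block they were 0.24, 0.10 and 0.12 (limma adjusted p = 0.524, 0.871 and 0.737). Over 19 arrays the probes correlated at r = 0.68 after the slide means were removed and at 0.67 without that step. Slide explained 52.9% of the variance of the second probe and 11.4% of that of the first. On slides 2 and 3 the second probe differed from control at 25 mg/kg by 0.11 and -0.08, and on slide 1 by 0.30. At 6.25 mg/kg it differed by 0.75 on slide 1, which held 1 mouse at that dose, and by 0.07 and 0.03 on slides 2 and 3. The first probe read 5.67-fold less in liver than in the reference on average, a mean of -2.50 on the log2 scale that was -3.53 with median centring, and its reference channel had an SD of 0.04 over 19 arrays against 0.27 in the liver channel.

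**Figure D3:**
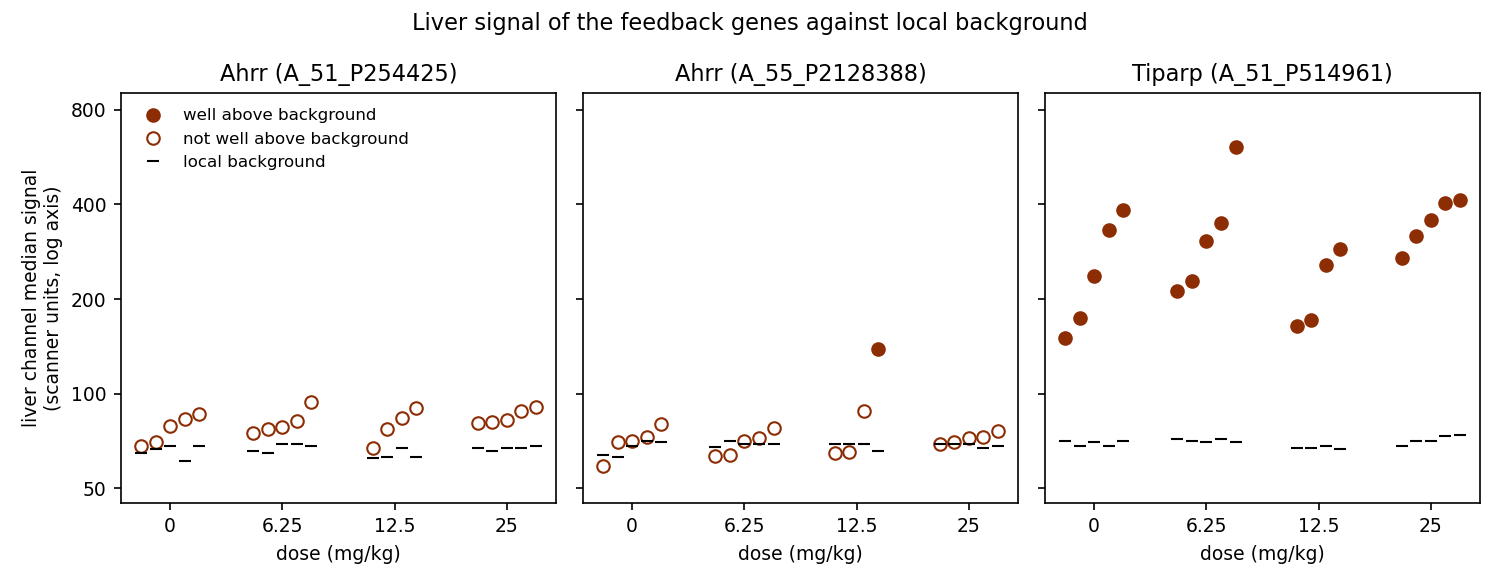
Median signal of the liver channel (y axis, scanner units, log axis) by dose (x axis, mg/kg) for both Ahrr probes and the brighter Tiparp probe, 1 point per mouse; filled points were well above background, open points were not, and dashes are the local background. Ahrr signals lie near their background at every dose except for 1 mouse at 12.5 mg/kg on 1 probe, while Tiparp lies above its background in all 19 mice.

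Ahrr, the repressor whose promoter carries 3 copies of the core letters, was not well above background in liver at any dose with the probe A_51_P254425 (0 of 19 arrays). Its liver signal was 68, 70, 79, 83 and 86 scanner units in controls and 81, 81.5, 82.5, 88 and 91 at 25 mg/kg. The 6.25 mg/kg mice read 75, 77, 78.5, 82 and 94, and those at 12.5 mg/kg 67, 77, 84 and 90, against local backgrounds of 61 to 69 over all arrays. The groups overlapped at every dose. The same probe was well above background in the reference on 19 of 19 arrays, where its median signal was 96 units. The second probe, A_55_P2128388, was well above background in 1 of 19 livers. That mouse, at 12.5 mg/kg, read 139 units against a background of 66, and the reference channel of the same spot read 207, where the other 18 arrays read 26 to 63.5. Its 3 companions at that dose read 65, 65.5 and 88, and mice at 25 mg/kg read 69 to 76. With no group well above background on the first probe and 1 mouse on the second, no fold is given for Ahrr, and a difference between doses was not detectable here. Cyp1a1, the target most used to read AhR activity, was likewise well above background on 1 of 19 arrays.

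Ptges3, the cochaperone p23 that stabilises the Hsp90 complex with AhR, was close to control at every dose on its brightest probe. With A_55_P1994355, controls stood at -1.18, -0.96, -0.95, -0.93 and -0.73, a mean of -0.95 ± 0.16 (SD, n = 5). Mice at 25 mg/kg stood at -1.24, -1.08, -1.01, -0.84 and -0.69, a mean of -0.97 ± 0.21 (SD, n = 5), spanning the control range. Means were -0.88 ± 0.21 (n = 5) at 6.25 mg/kg and -1.01 ± 0.05 (n = 4) at 12.5 mg/kg, and all groups overlapped. The change at 25 mg/kg was -0.03 ± 0.12 (SE; limma adjusted p = 0.976), with a 95% interval from -0.27 to 0.22, and it was 0.02 with the slide block. At 6.25 and 12.5 mg/kg it was 0.07 ± 0.12 and -0.06 ± 0.12 (adjusted p = 0.958 and 0.999).

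The other 3 Ptges3 probes were set apart by slide. At 25 mg/kg, A_55_P2079485, A_55_P2100526 and A_55_P2018542 differed from control by -0.17, -0.03 and -0.25 (limma adjusted p = 0.911, 0.983 and 0.831), and by 0.0030, 0.10 and -0.13 with the slide block (adjusted p = 0.994, 0.798 and 0.515). Slide explained 87.9%, 59.7% and 84.2% of their variance, and 37.8% of that of the brightest probe. For A_55_P2079485 the mean ratio was 0.09 on slide 1, -0.65 on slide 2 and -0.76 on slide 3. The reference channel, which holds the same RNA on every array, moved as well, from a mean of 11.83 on slide 1 to 12.38 on slide 2 and 12.54 on slide 3, while the liver channel stood at 11.92, 11.73 and 11.77. Over 19 arrays the reference channel varied more than the liver channel on these 3 probes, with SDs of 0.29 against 0.17, 0.22 against 0.19 and 0.21 against 0.13. For A_55_P2100526, replicate 5 at 25 mg/kg read 11.33 in the reference, where the other groups went no lower than 11.90. Its ratio, 0.57, was the probe's highest, and the values at 25 mg/kg include it. In controls and at 6.25 mg/kg that probe's reference SD was the smaller, at 0.12 against 0.14 and 0.16 against 0.29. At 12.5 mg/kg both were 0.13. On the brightest probe both channels were highest on slide 1, at 13.92 in the reference and 13.14 in liver. The correlation between A_55_P2079485 and A_55_P2018542 was 0.93 before and 0.53 after slide means were removed.

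**Figure D4:**
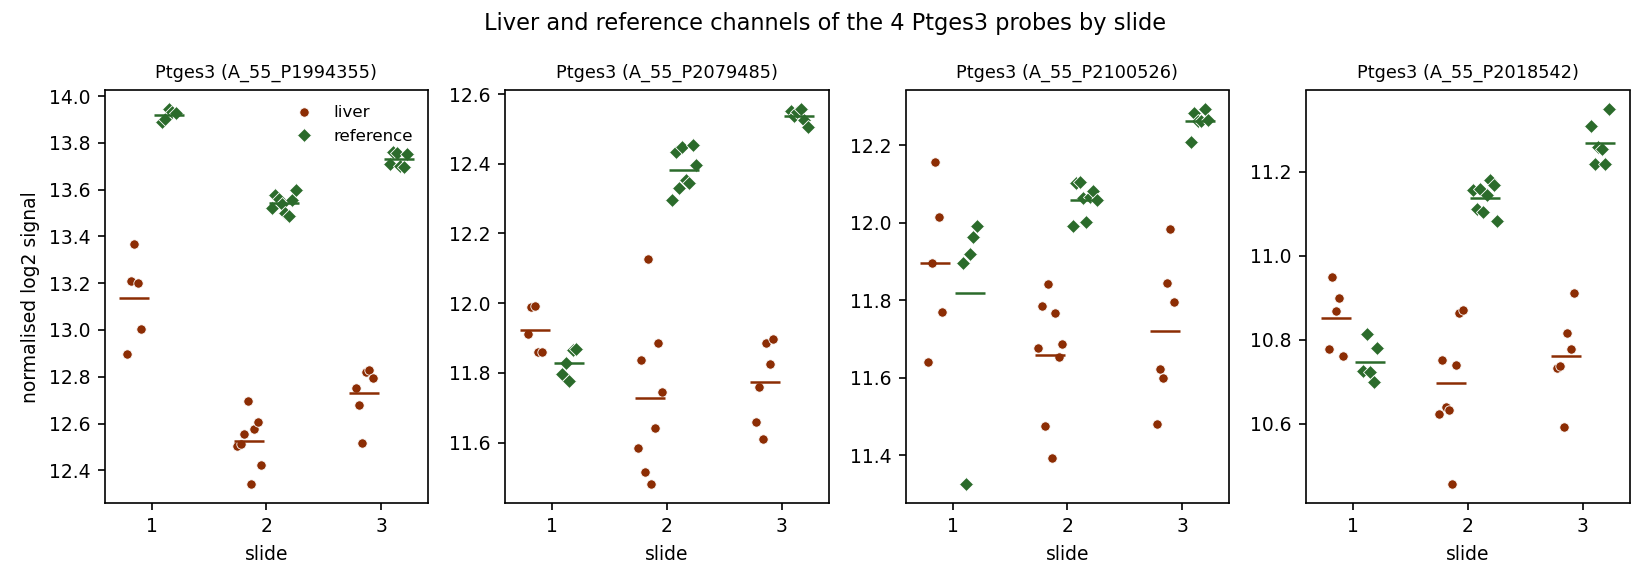
Normalised log2 signal (y axis) of the liver channel (circles) and the reference channel (diamonds) by slide (x axis) for the 4 Ptges3 probes, 1 point per array, with bars at the slide means. For A_55_P2079485 the reference lies at a mean of 11.83 on slide 1 and at 12.38 and 12.54 on slides 2 and 3, while the liver channel stays between 11.73 and 11.92.

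Hsp90ab1, the constitutive Hsp90 that holds AhR in its ligand-binding form, spread more widely in treated mice, with no shift that passed. With A_55_P2048434, controls stood at -0.65, -0.61, -0.51, -0.46 and -0.41, a mean of -0.53 ± 0.10 (SD, n = 5). Mice at 25 mg/kg stood at -1.06, -0.82, -0.68, -0.31 and -0.31, a mean of -0.64 ± 0.33 (SD, n = 5), with 3 below all controls and 2 above. The values at 6.25 mg/kg were -0.85, -0.84, -0.53, -0.49 and -0.28, and at 12.5 mg/kg -0.91, -0.43, -0.31 and -0.24, which also reached past the controls on both sides. The difference in spread was not tested. The change at 25 mg/kg was -0.11 ± 0.16 (SE; limma adjusted p = 0.908), a 95% interval from -0.44 to 0.22. At 6.25 and 12.5 mg/kg it was -0.07 ± 0.16 and 0.05 ± 0.17 (adjusted p = 0.971 and 0.999). With the slide block the changes at 6.25, 12.5 and 25 mg/kg were -0.03, 0.07 and -0.07 (limma adjusted p = 0.964, 0.93 and 0.886). Within slides the difference at 25 mg/kg was 0.27 on slide 1, 0.04 on slide 2 and -0.54 on slide 3. Slide 3 held the 2 lowest mice at 25 mg/kg, the lowest at 12.5 mg/kg and 1 control, the highest of the 5. The sign at 25 mg/kg turned to 0.33 with median centring and to 0.09 with the deposited table of values.

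Across the 19 mice some members varied together, which is given as a description: the mice share slides and doses. With slide means removed, Arnt and Tiparp correlated at r = 0.65 (0.54 without that step), Tiparp and Ptges3 at 0.52 (0.20), Arnt and Ptges3 at 0.50 (0.26) and Ptges3 and Hsp90ab1 at 0.49 (0.46). Ahr ran against Arnt at -0.45 (-0.25), and was near 0 with Tiparp, at -0.04 (0.03). Likeness to other genes was measured over 19 arrays as Pearson's r after slide means were removed, among 13546 genes, with r before that step in brackets. Nearest to Ahr were Osbpl8 at 0.89 (0.89), Lgr5 at 0.86 (0.65), an R-spondin receptor marking hepatocytes around the central vein, and Rapgef2 at 0.86 (0.87). Nearest to Tiparp were Smarca2 at 0.87 (0.56), a chromatin-remodelling ATPase, Itpr1 at 0.85 (0.71) and Trim24 at 0.84 (0.71). Nearest to Arnt were Limd1 at 0.89 (0.73), Ipo5 at 0.89 (0.55) and Maco1 at 0.89 (0.90). Ptges3 was nearest to Saysd1 at 0.92 (0.86), Hnrnph1 at 0.84 (0.78) and Elovl2 at 0.82 (0.82). Hsp90ab1 was nearest to Scnm1 at 0.88 (0.76), to its inducible twin Hsp90aa1 at 0.86 (0.78) and to Ahsa1 at 0.85 (0.88), the cochaperone that activates the Hsp90 ATPase.

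The genes around the receptor were described from lists, each gene by its brightest kept probe. Of 28 genes of the AhR complex and its cofactors outside the members, 27 were kept, and 0 passed at any dose in either fit. At 25 mg/kg, 12 were higher and 15 lower, with a median of -0.02 against -0.01 over all genes. The smallest p-values belonged to Fkbp5, an Hsp90-binding immunophilin induced by glucocorticoids, at 0.76 ± 0.22 (SE; limma adjusted p = 0.266), Ppp5c at 0.23, Esr1 at 0.36 and Rela at -0.20. Hsp90aa1, the inducible Hsp90, stood at -0.65 ± 0.56 (SD, n = 5) in controls and -0.87 ± 0.65 (n = 5) at 25 mg/kg. A further list held other chaperones and heat shock genes. Beside cytosolic chaperones it named the mitochondrial Trap1, Hspd1 and Hspe1 and the transcription factor Hsf1. Of 14 genes kept from it, 3 were higher and 11 lower at 25 mg/kg, 1 higher and 13 lower at 12.5 mg/kg and 7 of each at 6.25 mg/kg. In either fit 0 passed. The median at 25 mg/kg was -0.07, and 0.03 with the slide block. The first by p were Dnajb1 at -0.85 ± 0.28 (SE; adjusted p = 0.375), Hspa1a at -1.02 ± 0.43 and Bag3 at -0.74 ± 0.36, all inducible by heat shock factor 1, and Hsf1 itself at 0.15 ± 0.09.

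Among 18 AhR targets kept of 20 listed, 9 were higher and 9 lower at 25 mg/kg, with a median of -0.02. None passed in the fit on dose alone, and 2 rose with the slide block, which called 0.809% of all probes. One of them was Fmo2, a flavin monooxygenase, by 1.25 (adjusted p = 0.0151; 1.10 ± 0.29 and 0.202 without the block). Nfe2l2, the antioxidant regulator NRF2, stood at 0.54 ± 0.21 (SE; adjusted p = 0.497) and Gsta1 at -0.52 ± 0.25 (adjusted p = 0.688). Cyp1a2, the AhR-driven oxidase that liver expresses at rest, was above background on 19 of 19 arrays, at 5.39 ± 0.63 (SD, n = 5) in controls and 5.29 ± 0.51 (n = 5), 5.29 ± 0.68 (n = 4) and 5.22 ± 0.54 (n = 5) at 6.25, 12.5 and 25 mg/kg. The groups differed by less than their spread.

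The relatives of Ahr and Arnt in the bHLH-PAS family include clock and hypoxia factors. The list used here also holds Per1, Per2 and Per3, which share the PAS domain but lack the bHLH domain that binds DNA. Of 19 listed, 11 were kept, with 6 higher and 5 lower at 25 mg/kg and a median of 0.03, and 0 passed without the slide block. With it 3 passed, in a fit that called 0.809% of all probes: Arntl (BMAL1), the clock partner, fell by 2.47 (adjusted p = 0.0291; -2.33 ± 0.55 and 0.136 without), Clock fell by 0.64 (adjusted p = 0.0398; -0.56 ± 0.19 and 0.416 without) and Per3 rose by 1.22 (adjusted p = 0.0426; 1.06 ± 0.37 and 0.424 without). Per2 stood at 1.55 ± 0.35 (adjusted p = 0.107; 0.0523 with the block) and Per1 at 1.33 ± 0.32 (adjusted p = 0.163; 0.0722 with the block). Mean Arntl levels were 1.28 ± 0.22 (SD, n = 5) in controls, 0.08 ± 1.45 (n = 5) at 6.25, -0.74 ± 1.01 (n = 4) at 12.5 and -1.06 ± 0.76 (n = 5) at 25 mg/kg. The hour at which each mouse was killed is not given in the sources used here, and its part in the clock genes was not tested. Over all treated mice with the block, Arntl fell by 1.99 (adjusted p = 0.0404; -1.85 and 0.201 without), where 0.408% of all probes were called. Along the dose trend with the block Clock fell and Fmo2 rose (adjusted p = 0.0474 each), where 0.241% were called, and without it their adjusted p was 0.423 and 0.266. Hif1a stood at -1.47 ± 0.48 (n = 5), -1.24 ± 0.57 (n = 5), -1.52 ± 0.33 (n = 4) and -1.22 ± 0.34 (n = 5) from control to the highest dose, and Arnt2 was not well above background on any array.

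Of 13 genes kept of the hypoxia response, which needs ARNT, 7 were higher and 6 lower at 25 mg/kg, and 0 passed without the slide block. With it 2 rose, in the fit that called 0.809% of all probes: Vegfa, the endothelial growth factor, rose by 0.52 (adjusted p = 0.0366; 0.50 ± 0.12 and 0.127 without) and Bnip3, a mitophagy receptor, rose by 0.79 (adjusted p = 0.0352; 0.66 ± 0.24 and 0.446 without). Ndrg1 stood at -1.16 ± 0.28 (adjusted p = 0.142; 0.0575 with the block) and Ankrd37 at 0.79 ± 0.33 (adjusted p = 0.597). Of 13 relatives of Tiparp in the PARP family kept, 7 were higher and 6 lower, and 0 passed in either fit. The leading 4 by p were Parp1 at -0.13, Parp16 at 0.24, Parp12 at 0.20 and Parp4 at 0.12, each smaller than the 0.41 of Tiparp, with the difference between genes not tested.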

How the data were processed

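Scanner files of 19 two-colour Agilent arrays (mouse liver Cy5, reference Cy3) hold, per the file headers, median intensity and local background per spot and a processed intensity, all from Feature Extraction 10.7.3.1. The deposited table holds log2 ratios whose processing is not stated in the labels; its columns correlated with ratios computed here without background subtraction. Unannotated intervals on the array are named by build mm9, per the file headers. Labels' protocols give 200 ng of total RNA per mouse, from individual mice.

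Median signals were corrected with normexp (offset 50) and loess-normalised in limma 3.58.1 (R 4.3.3). Outlier spots were set to missing. Probes above background in liver (more than 0.5 of spots) on at least 4 arrays, 29415 of 55681, were fitted with lmFit and eBayes over 4 groups, two-sided, with Benjamini-Hochberg adjustment and a threshold of 0.05. P-values rest on the spread between mice and between arrays, which 1 array per mouse cannot separate. In the fit without the slide block they also rest on the spread between slides. Symbols came from RefSeq accessions (GRCm38.p6, names only). The brightest kept probe stood for its gene; all member probes, the 4 smallest p-values of each list at 25 mg/kg, any listed gene that passed, the 3 genes most like each member and a few preset genes are named, except for items not reported here. The members and lists were chosen with earlier results of these data known. The test was tried on simulated data. Alternatives were slide as a fixed or random block (statmod 1.5.0), other background, normalisation, filter, weight and probe choices, the deposited table, and each array left out.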

Additional observations from a re-analysis of the deposited data

Results flagged for a closer look

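In groups of 4 or 5 mice, 3 member values stood apart by the gap between the extreme mouse and its nearest neighbour (Dixon's test), out of 52 combinations of probe and group, where chance flags about 1 in 20 groups. All 3 belong to Ptges3. With A_55_P2079485, replicate 5 at 6.25 mg/kg read 0.2152 on the log2 scale of liver over reference, above -0.87 to -0.67 in the others. With A_55_P2018542, replicate 5 at 25 mg/kg read 0.1363, above -0.67 to -0.47 in the others. Each is the only slide 1 array of its group, and on both probes the slide 1 mean was above those of slides 2 and 3. With A_55_P2100526, replicate 1 at 12.5 mg/kg read -0.7261, below -0.32 to -0.26 in the others; it is the only slide 3 array of its group.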

How the results depend on the processing

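Of 820 gene values recomputed under alternatives, 0 crossed the threshold and 51 changed sign. Each gene was followed by its brightest kept probe, except in the setting that took the mean of its probes. Arnt and Tiparp kept their sign in 164 of 164, Ahr in 157, Hsp90ab1 in 143 and Ptges3 in 141. The dimmer Arnt probe was not followed by itself in these values. In the main fit it stood at -0.03, 0.0071 and -0.01 at 25, 12.5 and 6.25 mg/kg. A kept sign can also hide a change in size: with median centring, Arnt and Tiparp ran from 0.0020 and 0.0154 at 12.5 mg/kg to 0.7771 and 0.6952 at 25 mg/kg. Among the alternatives, Aquantile scaling between arrays left the ratios as they were, so its values could not move. Each refit without 1 array shared all its other arrays with the main fit. The counts of kept signs are therefore not counts of independent checks. Sign changes by setting were as follows. Slide as a fixed block gave Ptges3 0.0217 at 25 mg/kg and 0.0379 for all treated, and as a random block 0.0133 and 0.0303. No background subtraction gave 0.0132 (Ptges3) and 0.0071 (Hsp90ab1) for all treated. The scanner software's signals gave Hsp90ab1 0.0904 at 25, 0.2432 at 6.25, 0.1915 for all treated and a slope of 0.0014, and Ptges3 0.0105 for all treated. Median centring gave Ahr 0.1098 at 25 and 0.0893 for all treated, Ptges3 0.3574, 0.1597 and a slope of 0.0091, and Hsp90ab1 0.334 at 25, -0.1217 at 12.5, 0.3065 at 6.25, 0.1729 for all treated and a slope of 0.0092. That setting moved the median of all probes to 0.16, -0.11 and 0.09 at 25, 12.5 and 6.25 mg/kg; relative to it, Ahr stood at -0.05 and Ptges3 at 0.19 at 25 mg/kg. The liver channel alone gave Hsp90ab1 0.0131, 0.1003 and 0.0803 (25, 6.25, all treated). The deposited table gave Ptges3 0.0053 at 25, 0.0111 at 12.5 and 0.0479 for all treated, and Hsp90ab1 0.0893, 0.1606, 0.1209 and a slope of 0.0020. Array weights gave Ahr 0.0834 for all treated, and the mean of its probes gave Ptges3 -0.0794 at 6.25. With each array left out, Ptges3 ran from -0.0951 to 0.0414 at 25, -0.0065 to 0.1389 at 6.25, -0.0630 to 0.0497 for all treated and -0.0051 to 0.0004 in slope; Hsp90ab1 from -0.0241 to 0.1997 at 12.5, -0.0735 to 0.0060 for all treated and -0.0065 to 0.0011 in slope; and Ahr from -0.0961 to 0.0435 for all treated. The cause of these changes was not tested.

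Levels against the reference fell with median centring, to -3.5282 and -2.7538 (Tiparp), -1.9723, -1.3495, -1.4980 and -1.3288 (Ptges3), -1.6556 (Hsp90ab1), -1.3455 and -1.3328 (Arnt) and -0.5446 (Ahr), and the deposited table gave -1.4327 and -0.6548 for 2 Ptges3 probes. Probes passing at 25 mg/kg over the whole array numbered 17, 0 to 67 with each array left out and 5 to 238 otherwise; for all treated 11, 0 to 17 and 2 to 131; for any dose 3, 0 to 12 and 0 to 36; for the trend 6, 0 to 83 and 0 to 108; at 12.5 mg/kg 0, 0 to 5 and 0 to 6. At 6.25 mg/kg limma called 0 in each, beside 1639 at an unadjusted p under 0.05. Signal over background limits Ahrr. No paired analysis was possible because the sample numbers in the labels run through all groups without repeating, and mark no mouse or batch shared between groups.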
